A study of Homo sapiens with 8 samples.

Results

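The genes described here are 10 known targets of the let-7 microRNAs that support growth in embryonic and tumour cells: LIN28B, IGF2BP1, IGF2BP2, IGF2BP3, HMGA1, HMGA2, ARID3B, CCND1, CCND2 and CDC34. They were chosen by name, as known let-7 targets and with earlier results of these data known, from the 23368 gene symbols of the count table. All 10 had reads in every library and passed the filter on low counts, as did 15254 symbols in all. The cells were HEK293F, a human embryonic kidney line grown in medium with serum, in which the amount of the RNA helicase MOV10 had been lowered or raised before RNA sequencing. The knockdown group (2 libraries, numbered 2 and 3) received siRNA against MOV10, the control group (3 libraries) an irrelevant siRNA, each given 3 times, a day apart. The overexpression group (3 libraries) received 1 transfection of a myc-MOV10 plasmid, and no empty-plasmid group is among these libraries. Overexpression against control therefore differs in the way, number and timing of treatments as well as in MOV10, and these cannot be told apart.

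let-7 is a family of microRNAs that is scarce in early embryonic cells and abundant in differentiated ones. Loaded into an Argonaute protein, it pairs through its seed with sites in 3' untranslated regions (3' UTRs) and lowers the translation and stability of the bound messages. LIN28B closes a loop, since it binds let-7 precursors and hinders their maturation while its own message carries let-7 sites. MOV10 associates with Argonaute proteins and with the fragile X protein FMRP, and the study's title places it on both sides of microRNA regulation, as a helper and as an antagonist. Mature microRNAs were not among the measured features, so the level of let-7 in these cells is not known from these data.

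The family is shown first because its seed defines the sites searched in the 10 genes. RefSeq (GRCh38.p14) lists 12 loci with 9 different mature names, each 22 nt long, and all of them share 1 seed. In the sequences below, written 5′ to 3′, the capitals mark the seed, bases 2 to 8.
let-7a-5p: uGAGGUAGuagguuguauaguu
let-7d-5p: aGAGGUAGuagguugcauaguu
let-7g-5p: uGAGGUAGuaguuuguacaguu
miR-98-5p: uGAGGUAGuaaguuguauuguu

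Sites were searched on the message strand of the longest annotated 3' UTR of each gene (GENCODE 29). An 8-base site reads CTACCTCA, a 7-base site opposite bases 2 to 8 of let-7 reads CTACCTC, and a 7-base site opposite bases 2 to 7 followed by A reads TACCTCA. These overlap, so each position was counted once, under its longest form. A match of these letters is a description of the sequence and was not tested for binding. One site of each gene is printed to show how close the matches are, and for IGF2BP1 2 neighbouring sites are printed as an example of a pair. Capitals mark the seed match, the 24-nt stretch ends at the base opposite let-7 base 1, and the coordinates (GRCh38) cover the capitals.
LIN28B (chr6:105078827-105078834, plus strand): tacccggttgcaaagtCTACCTCA
IGF2BP1, first of a pair (chr17:49051076-49051083, plus strand): ctgtgtgcgaagtaaaCTACCTCA
IGF2BP1, second of a pair (chr17:49051095-49051101, plus strand): acctcaaggtatgaagtTACCTCA
IGF2BP2 (chr3:185644220-185644227, minus strand): aaacacacagaagaagCTACCTCA
IGF2BP3 (chr7:23311795-23311802, minus strand): gtgcatttttactcaaCTACCTCA
HMGA1 (chr6:34245844-34245850, plus strand): ttcctctgttcacaaaCTACCTCt
HMGA2, principal transcript (chr12:65963313-65963320, plus strand): cgccaacgttcgatttCTACCTCA
ARID3B (chr15:74595842-74595848, plus strand): agttgatgcacagaattTACCTCA
CCND1 (chr11:69653496-69653502, plus strand): aggttgctgtttcacaaTACCTCA
CCND2 (chr12:4301992-4301998, plus strand): aaagacggagtattcttTACCTCA
CDC34 (chr19:541620-541627, plus strand): ctccttagacgacagaCTACCTCA

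Every printed site lies in the last exon of its transcript. The 5 genes with an 8-base site in the longest 3' UTR were LIN28B, the 3 IGF2BP genes and CDC34. HMGA1 and the cyclins CCND1 and CCND2 had 7-base sites only, as did ARID3B. LIN28B held 5 sites in 4549 nt, 2 of them of 8 bases, and the first began 44 nt after the stop codon. IGF2BP1 also held 5 sites, in 6206 nt, of which 3 had 8 bases. ARID3B had 5 sites in the much shorter stretch of 2357 nt, all of 7 bases. CCND2 had 3 sites in 5341 nt, CCND1 2 in 3192 nt, IGF2BP2 2 in 1792 nt and CDC34 2 in 707 nt. IGF2BP3 and HMGA1 had 1 site each.

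HMGA2 depended on the transcript read. Its longest annotated 3' UTR, 7421 nt in a transcript with another last exon, held no 7- or 8-base site, whereas the principal transcript held 7 in 3003 nt, including an 8-base site 21 nt after the stop codon. Only 1 of its 7 coding transcripts carried a site, and counts per gene cannot separate transcripts. With longest 3' UTRs, 9 of the 10 genes held 26 sites, and with principal transcripts all 10 held 33. Among the 13689 tested genes with a 3' UTR of at least 50 nt, 18.2% held a 7- or 8-base site and 4.35% an 8-base site. Since longer 3' UTRs hold more matches, shares are also given by length. Over 3000 nt, 41.2% of genes had a site against 4 of 5 of the let-7 targets, and between 1000 and 3000 nt 17.7% had one against 4 of 4. CDC34, the only one of the 10 genes under 1000 nt, had sites where 5.40% of genes that short did. IGF2BP1, IGF2BP2 and CDC34 carried a pair of sites whose starts lay 50 nt or less apart, counted from the same seed base, an arrangement found in 0.234% of all genes. The distance was 18, 15 and 42 nt. With principal transcripts HMGA2 held such a pair as well, 19 nt apart, and 0.197% of all genes did. The 10 genes were chosen as known let-7 targets, so more sites than in other genes can follow from that choice. These shares are descriptions.

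**Figure D1:**
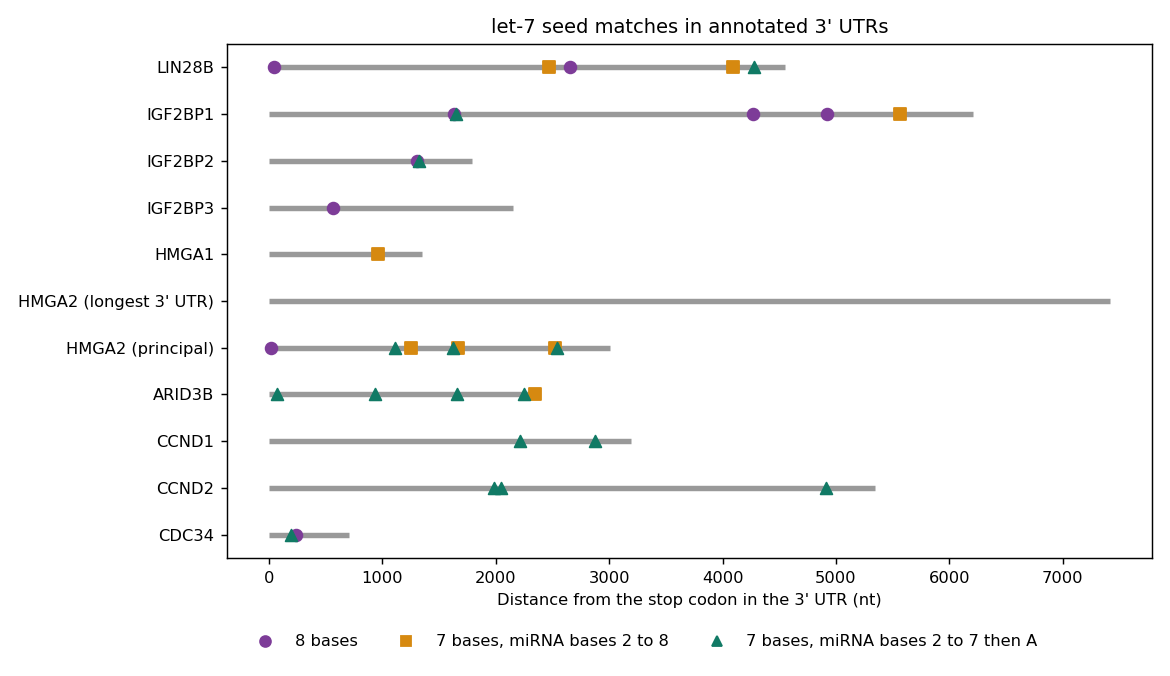
The plot of let-7 seed matches shows each 3' UTR as a grey line from the stop codon (x axis, nt) with 8-base sites as circles, 7-base sites opposite bases 2 to 8 as squares and 7-base sites opposite bases 2 to 7 followed by A as triangles. LIN28B, IGF2BP1 and ARID3B hold 5 sites each, and HMGA2 holds 7 in its principal transcript and none in its longest 3' UTR.

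Libraries held 12.7 M to 32.8 M counted reads. Whether libraries of the same group are separate cultures is not labelled, so p-values rest on a spread that may be technical. MOV10 stood at 76.4 to 91.2 CPM (a gene's reads at a common depth, scaled by TMM) in control libraries, at 50.6 and 55.5 CPM with knockdown and at 2454 to 2971 CPM with overexpression. Overexpression replicate 3 was the shallowest library and lay farthest from its group, and results that turn on it are given without it. Of 9 genes known from HEK293 cells, among them VIM and NEFL, all 9 were tested. Their summed level was 1286 to 1331 CPM in control, 1195 to 1213 CPM with overexpression and 1562 to 1633 CPM with knockdown. Fibroblast markers, 5 of 7 tested, summed to 62.3 to 68.1, 62.4 to 69.9 and 45.7 to 48.4 CPM in the same order, nearly all from COL1A1. Blood, endothelial and hepatic markers each summed to under 3 CPM in every library, and HBB and TTR had no read. The part of these marker differences in the results below was not tested. In bulk RNA a change in the share of cells and a change in RNA per cell cannot be told apart.

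All 10 targets were well expressed in control cells. Compared per kilobase of the longest transcript, HMGA1 stood highest, at 234 ± 2.67 CPM per kb (SD, n = 3), followed by IGF2BP1 at 69.0 ± 0.578, CDC34 at 54.3 ± 1.60, LIN28B at 51.2 ± 0.758 and IGF2BP2 at 30.2 ± 0.520. CCND2 (24.1 ± 0.780 CPM per kb) and IGF2BP3 (23.9 ± 0.297) overlapped in their libraries and are not ordered, and CCND2 overlapped ARID3B as well (23.3 at its lowest against 23.6 at the highest). ARID3B followed at 22.9 ± 0.939, CCND1 at 20.2 ± 0.532 and HMGA2 at 14.8 ± 0.754 CPM per kb. The other neighbours named here did not overlap in their control libraries. The HMGA2 value depends on the transcript length assumed, which was that of the isoform without let-7 sites. LIN28A, the paralog of LIN28B, had 1 to 6 reads per library, too few to be tested.

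With overexpression 3 of the 10 targets rose (CCND1, CCND2 and IGF2BP2), 3 fell (HMGA1, IGF2BP1 and ARID3B) and 4 did not pass. By the same call, an adjusted p under 0.05 in edgeR's quasi-likelihood test, 49.2% of all tested genes were called, 25.2% higher and 24.1% lower, so 6 of 10 is near the background. The libraries did not overlap between the groups for the same 6 targets, against 56.0% of all genes. The median log2 fold change of the 10 was -0.05, beside 0.01 over all genes. With knockdown none rose, 3 fell (CCND2, HMGA2 and LIN28B) and 7 did not pass, where 39.0% of all genes were called, 19.9% higher and 19.1% lower. At an unadjusted p under 0.05 by edgeR 1 target was higher and 4 were lower, and DESeq2 gave 0 higher and 3 lower. Libraries did not overlap for 8 of 10 targets, against 63.7% of all genes, and the median log2 fold change was -0.09, beside -0.00095 over all genes. The knockdown count of 3 lower targets became 5 when overexpression replicate 2 or 3 was left out of the fit, with HMGA1 and ARID3B added, and 2 without either knockdown library, when LIN28B no longer passed. It was 5 also when only the compared groups were fitted. CDC34 passed as higher without knockdown replicate 3 or without overexpression replicate 2 or 3. Scaled by library totals, without TMM, the genes called with knockdown were 39.5% higher rather than 51.1%, and 5 targets were called lower. Both comparisons use the same 3 control libraries, so the differences of each target from control are not independent between them. Overexpression against knockdown tests whether the responses to the 2 treatments differ, with their delivery included. The way and number of treatments differ here too, and cannot be told apart from MOV10. Its contrast leaves out the control mean, but the control libraries enter the fit and its shared estimate of the spread. It called 5 targets higher and 4 lower, where 57.4% of all genes were called, 29.3% higher and 28.1% lower. Libraries did not overlap for 8 of 10 targets in that contrast, against 69.1% of all genes. With library totals the called genes there were 65.5% higher rather than 51.0%, and 2 targets were called lower.

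**Figure D2:**
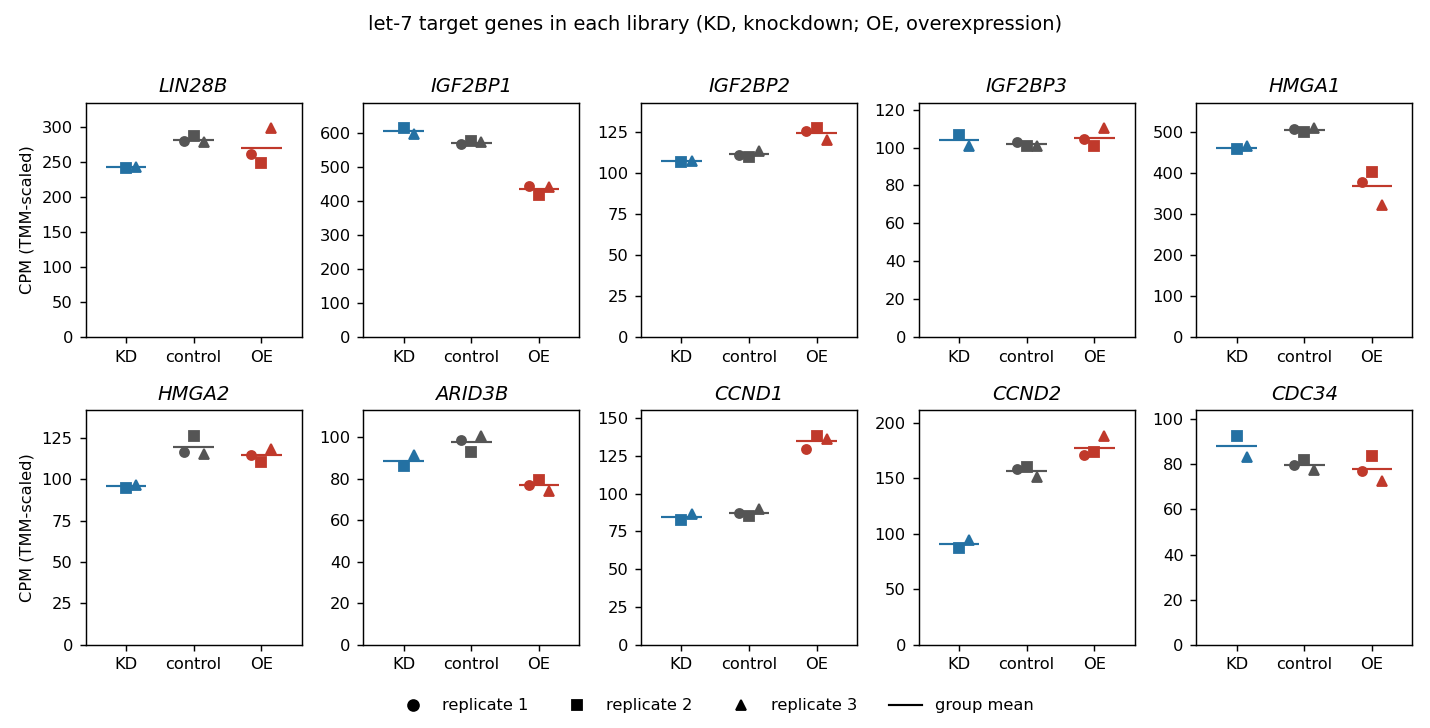
The plot of levels by library shows CPM (y axis, from 0) of each of the 10 genes with knockdown (KD), control and overexpression (OE), points for libraries and a line for the group mean. CCND2 lies at 87.3 and 94.5 CPM with knockdown and at 151 to 160 CPM in control, and CCND1 at 129.6 to 138 CPM with overexpression and at 85.0 to 89.6 CPM in control.

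The cyclins gave the largest changes among the 10 targets, each in a different condition. CCND1 and CCND2 encode D-type cyclins, the partners that activate CDK4 and CDK6 in G1. CCND1 stood at 86.8, 85.0 and 89.6 CPM in control, at 129.6, 138 and 136 CPM with overexpression and at 82.3 and 86.3 CPM with knockdown. All overexpression libraries lay above all others, while knockdown and control overlapped. CCND1 rose 1.55-fold with overexpression (log2 fold change 0.63 ± 0.05, SE, adjusted p = 6.88e-09 by edgeR), and 9.71% of tested genes changed more. With knockdown the CCND1 log2 fold change was -0.05 ± 0.06 (adjusted p = 0.527 by edgeR).

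CCND2 stood at 158, 160 and 151 CPM in control, at 87.3 and 94.5 CPM with knockdown and at 171, 174 and 188 CPM with overexpression. The 3 groups did not overlap. With knockdown CCND2 fell to 58.0% of control, a log2 fold change of -0.79 ± 0.06 (adjusted p = 5.18e-09 by edgeR), rank 46 by p among the 15254 genes. The rise with overexpression was smaller, 0.18 ± 0.05 on the log2 scale (adjusted p = 0.00669 by edgeR), and did not pass without control replicate 3 (adjusted p = 0.0504). CCND2 was 1.95-fold higher with overexpression than with knockdown (log2 fold change 0.97 ± 0.06, adjusted p = 2.67e-10 by edgeR), rank 18 by p in that contrast. Its paralog CCND3, which holds the same place in the cycle, fell with overexpression by 0.36 on the log2 scale (SE 0.05) and was at -0.09 ± 0.06 with knockdown, which did not pass.

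CDC34 encodes the ubiquitin-conjugating enzyme that works with SCF ligases on cell cycle regulators. It stood at 79.9, 82.1 and 77.4 CPM in control, at 92.9 and 83.4 CPM with knockdown and at 77.3, 83.8 and 72.7 CPM with overexpression. Knockdown libraries lay above control, and overexpression libraries were spread on both sides of it. Neither comparison with control passed for CDC34, with log2 fold changes of 0.15 ± 0.07 (adjusted p = 0.0812 by edgeR) for knockdown and -0.03 ± 0.06 (adjusted p = 0.696) for overexpression. The contrast of overexpression with knockdown passed at -0.18 ± 0.07 (adjusted p = 0.0252 by edgeR), but not without knockdown replicate 2 (adjusted p = 0.393), without overexpression replicate 1 (0.0776) or with library totals (0.242). UBE2R2, its closest paralog, fell with knockdown by 0.30 on the log2 scale (SE 0.06) and was at 0.06 ± 0.05 with overexpression, which did not pass.

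LIN28B, the inhibitor of let-7 maturation, stood at 279.6, 286 and 279 CPM in control, at 242 and 243 CPM with knockdown and at 262, 248 and 298.5 CPM with overexpression. The knockdown libraries lay below all others, and overexpression replicate 3 lay above all control libraries while its 2 partners lay below them. LIN28B fell with knockdown to 86.1% of control, a log2 fold change of -0.22 ± 0.06 (adjusted p = 0.00811 by edgeR). The call was lost without knockdown replicate 2 (adjusted p = 0.0723) or without knockdown replicate 3 (0.0568). With overexpression LIN28B was at -0.07 ± 0.06 (adjusted p = 0.331 by edgeR). Without overexpression replicate 3 the value was -0.14 ± 0.04 (adjusted p = 0.00315), a call. The difference between overexpression and knockdown, 0.15 ± 0.06 (adjusted p = 0.0413 by edgeR), had the highest adjusted p of the 9 that passed. It was lost in 10 of 15 alternatives, among them by DESeq2 (adjusted p = 0.0767) or with its size factors (0.0533), with only the compared groups (0.0862), and without overexpression replicate 3 (0.144), either knockdown library (0.166 and 0.141) or any 1 control library (0.0580 to 0.0597).

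The 3 IGF2BP genes encode RNA-binding proteins that bind and stabilise messages such as MYC and IGF2. Of them, IGF2BP1 and IGF2BP3 are expressed mainly before birth. With overexpression IGF2BP1 fell, IGF2BP2 rose and IGF2BP3 did not pass. IGF2BP1 stood at 566, 575 and 572 CPM in control, at 444.5, 418 and 441 CPM with overexpression and at 614 and 597 CPM with knockdown. The 3 groups did not overlap, with overexpression lowest and knockdown highest. IGF2BP1 fell with overexpression to 76.1% of control (log2 fold change -0.39 ± 0.04, adjusted p = 2.91e-07 by edgeR). Its knockdown value, 0.08 ± 0.05 (adjusted p = 0.157 by edgeR), did not pass with all 3 groups in the fit and did with only 2 (adjusted p = 0.0372). The direct contrast of overexpression with knockdown was -0.48 ± 0.05 (adjusted p = 4.75e-08 by edgeR), the largest fall of the 10 targets there.

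IGF2BP2 rose with overexpression, from 110.7, 109.8 and 113 CPM in control to 125, 127 and 119.7 CPM, and stood at 106.8 and 107.1 CPM with knockdown. The groups did not overlap, although they lay close together. The rise with overexpression was 0.16 ± 0.05 on the log2 scale (adjusted p = 0.00910 by edgeR), with knockdown the value was -0.06 ± 0.05 (adjusted p = 0.420), and the direct contrast was 0.22 ± 0.05 (adjusted p = 0.00166). IGF2BP3 stood between 101 and 110.4 CPM in all 8 libraries and was the only one of the 10 targets called in none of the 3 comparisons. Its log2 fold changes were 0.05 ± 0.05 (adjusted p = 0.468 by edgeR) with overexpression and 0.03 ± 0.06 (adjusted p = 0.704) with knockdown. IGF2BP3 shares 1521 exon bases with MALSU1 on the opposite strand in GENCODE 29. The strand setting of the counting is not given in the sources used here, so reads of the 2 genes cannot be told apart.

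HMGA1 and HMGA2 encode architectural chromatin proteins that bind AT-rich DNA, and ARID3B a DNA-binding protein of the ARID family. HMGA1 stood at 508.5, 499 and 510.2 CPM in control, at 377, 403 and 321 CPM with overexpression and at 458 and 467 CPM with knockdown. Both treatments lay below control in every library, and overexpression lay lowest. HMGA1 fell with overexpression to 72.7% of control (log2 fold change -0.46 ± 0.06, adjusted p = 2.18e-06 by edgeR). With knockdown its value was -0.13 ± 0.06 (adjusted p = 0.116 by edgeR). This value passed in 5 of 15 alternatives. These were leaving out overexpression replicate 3 (adjusted p = 0.00507) or 2 (0.0392), fitting only the compared groups (0.00159), library totals (0.0398) and no filter (0.0426). The direct contrast was -0.33 ± 0.06 (adjusted p = 0.000205 by edgeR). GENCODE 29 names 8 pseudogenes for HMGA1, of which 1 is in the table, and how reads with several alignments were counted is not given, so its level is uncertain to that extent.

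HMGA2 responded in the other condition. It stood at 116.5, 127 and 116 CPM in control, at 94.8 and 96.7 CPM with knockdown and at 115, 111 and 118 CPM with overexpression. Knockdown libraries lay below all others, and overexpression and control overlapped. HMGA2 fell with knockdown to 80.0% of control (log2 fold change -0.32 ± 0.06, adjusted p = 0.000170 by edgeR), and was at -0.06 ± 0.05 (adjusted p = 0.320) with overexpression. The direct contrast, 0.26 ± 0.06, passed (adjusted p = 0.000684 by edgeR).

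ARID3B followed HMGA1, at 98.7, 93.1 and 101 CPM in control, 77.1, 79.4 and 73.9 CPM with overexpression and 86.1 and 91.6 CPM with knockdown. Again both treatments lay below control, and overexpression below knockdown. ARID3B fell with overexpression to 78.9% of control (log2 fold change -0.34 ± 0.05, adjusted p = 2.38e-05 by edgeR), and was at -0.14 ± 0.06 (adjusted p = 0.0680) with knockdown. The knockdown value passed in 4 of 15 alternatives. These were library totals (adjusted p = 0.0183), fitting only the compared groups (0.0136), and leaving out overexpression replicate 2 (0.0435) or 3 (0.0195). Overexpression against knockdown gave -0.20 ± 0.06 (adjusted p = 0.00529 by edgeR), which did not pass without knockdown replicate 3 (0.0721) or with library totals (0.0914). Its paralog ARID3A, also a known let-7 target, fell in both comparisons, by 0.41 (SE 0.06) with overexpression and by 0.28 (SE 0.07) with knockdown on the log2 scale. ARID3C, with a mean of 0.294 CPM in control, passed in neither.

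**Figure D3:**
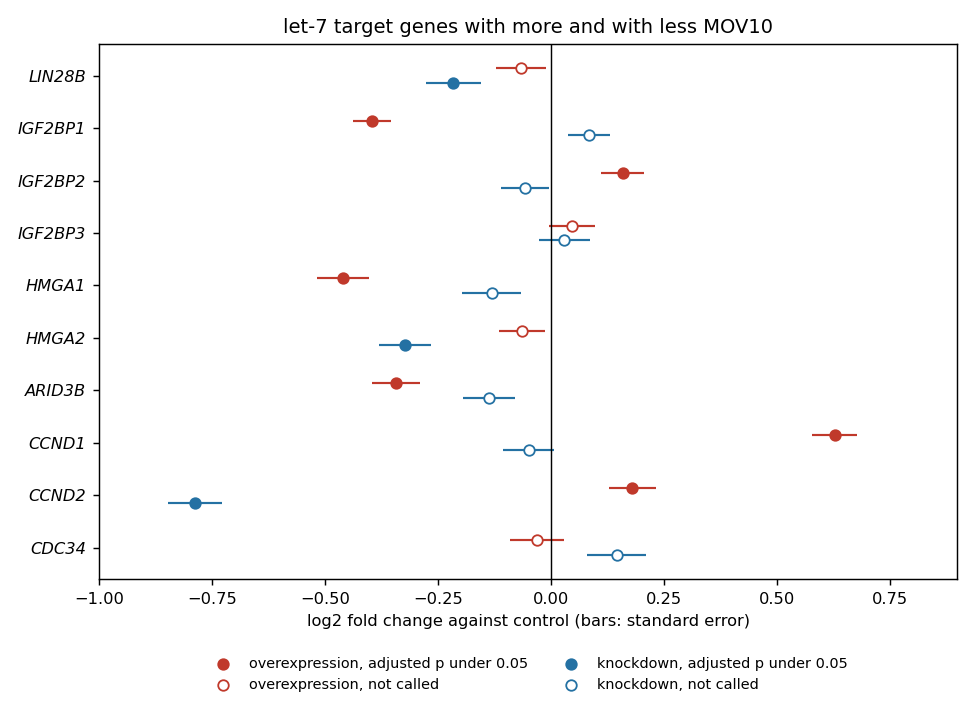
The plot of changes shows the log2 fold change against control (x axis, bars are standard errors) of each target with overexpression and with knockdown, filled where the adjusted p is under 0.05. No target passed in the same direction in both: CCND2 passed in both, at 0.18 and -0.79, and IGF2BP3 and CDC34 in neither.

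The number of sites did not sort the targets by their change. Among the 3 with 5 sites in the longest 3' UTR, IGF2BP1 and ARID3B fell with overexpression and LIN28B fell with knockdown. CCND1, with 2 sites of 7 bases, rose most. Over all genes, the median log2 fold change with overexpression was 8.19e-05 for the 11198 genes without a site, 0.02 for the 2023 with 1 site, 0.02 for the 367 with 2 sites and 0.09 for the 101 with 3 or more. The share called higher with overexpression was 24.4%, 27.5%, 29.2% and 37.6% in the same order, and the share called lower 26.1%, 23.4%, 23.7% and 18.8%. With knockdown the medians were 0.00514, -0.02, -0.05 and -0.03. These classes also differ in 3' UTR length, with medians of 1170, 2714, 4336 and 6941 nt. Within 3' UTRs over 3000 nt, the median with overexpression was 0.03 for 1803 genes without a site, 0.05 for 1264 genes with at least 1 and 0.08 for 88 genes with 3 or more, and with knockdown -0.02, -0.04 and -0.03. Between 1000 and 3000 nt the overexpression medians were -0.01 both without a site (4389 genes) and with at least 1 (941 genes). Under 1000 nt they were -0.00681 without a site (5006 genes) and -0.0169 with at least 1 (286 genes), the other way round from 3' UTRs over 3000 nt. The knockdown medians were 0.00127 without a site and -0.0115 with at least 1 between 1000 and 3000 nt. Under 1000 nt the knockdown medians were 0.0162 and -0.00965, so genes with a site were lower in each length class. The classes are given as descriptions, without a test, and the part of 3' UTR length in them was not tested further. Of the 4 targets with 3 or more sites, CCND2 lay above the class median with overexpression, and LIN28B, ARID3B and IGF2BP1 below it.

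**Figure D4:**
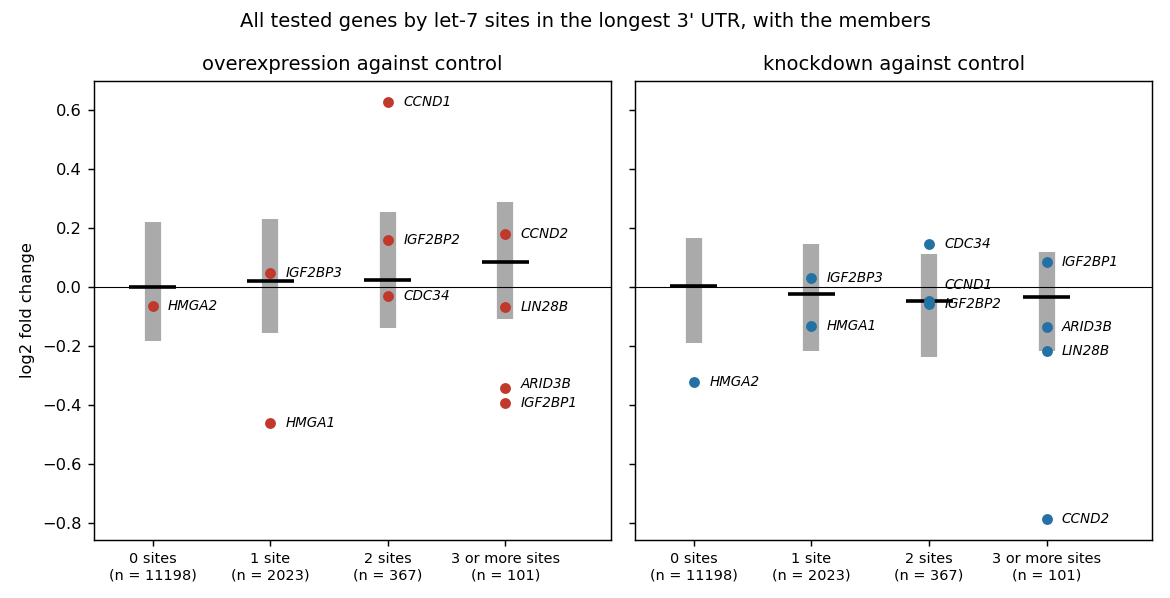
The plot by site class shows, for each number of let-7 sites in the longest 3' UTR (x axis), the median (black line) and interquartile range (grey bar) of the log2 fold change of all genes, with the targets as points, for overexpression and knockdown. CCND1 lies above the grey bar with overexpression, HMGA1, ARID3B and IGF2BP1 below it, and CCND2 and HMGA2 below it and CDC34 above it with knockdown. HMGA2 stands in the class without sites because its longest 3' UTR is used.

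The machinery that makes and removes let-7 fell more often than it rose with overexpression. The call counts of the lists that follow stand against the shares of all tested genes given above: 25.2% higher and 24.1% lower with overexpression, 19.9% and 19.1% with knockdown, and 29.3% and 28.1% in overexpression against knockdown. Of 19 tested genes of let-7 processing and turnover, 9 fell and 2 rose, with a median log2 fold change of -0.13 beside 0.01 over all genes. KHSRP, which promotes let-7 maturation, fell by 0.40 (SE 0.04), the export factor XPO5 by 0.38 (SE 0.04), TRIM25, a cofactor of let-7 precursor uridylation, by 0.32 (SE 0.05), and the RNA editor ADAR by 0.24 (SE 0.04). ZCCHC6, a terminal uridylyltransferase (also named TUT7), rose by 0.35 (SE 0.06). With knockdown 5 rose and 2 fell (4 fell with library totals or with only the compared groups fitted), with a median of -0.02 beside -0.00095 over all genes. TUT1, another terminal transferase, rose by 0.37 (SE 0.06), ZCCHC6 by 0.29 (SE 0.07) and the Dicer partner TARBP2 by 0.28 (SE 0.08), and KHSRP fell by 0.15 (SE 0.05), all on the log2 scale. Of these 4 knockdown calls, that of TUT1 alone passed without each library in turn. Without knockdown replicate 2, adjusted p was 0.0540 for ZCCHC6, 0.185 for TARBP2 and 0.0955 for KHSRP, and the whole list gave 1 rise and no fall. The KHSRP call was lost also without knockdown replicate 3 (0.0966), control replicate 1 (0.0607) or control replicate 2 (0.0527). Between overexpression and knockdown 11 were lower with overexpression and none higher by edgeR, with a median of -0.13 beside 0.02 over all genes. The differences were -0.67 (SE 0.08) for TARBP2, -0.51 (SE 0.05) for XPO5, -0.27 (SE 0.05) for ADAR and -0.25 (SE 0.05) for KHSRP. With library totals the list had 7 lower and 3 higher, and without overexpression replicate 2 or 3 it had 1 higher.

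Transcripts of the let-7 genes themselves were barely measurable. Of 15 let-7 loci and hosts in the table, 3 were tested. HUWE1, a ubiquitin ligase whose introns hold let-7f-2 and miR-98, rose by 0.33 (SE 0.06) with overexpression and by 0.53 (SE 0.07) with knockdown. LINC00478, which hosts let-7c and had 3.31 CPM in control, rose by 0.60 (SE 0.16) with overexpression and fell by 0.53 (SE 0.20) with knockdown, but the fall did not pass by DESeq2 (adjusted p = 0.0974), without either knockdown library (0.104 and 0.146), or without control replicate 1 (0.0844) or 2 (0.153). Between overexpression and knockdown LINC00478 differed by 1.13 (SE 0.18) and HUWE1 by -0.21 (SE 0.07). The HUWE1 difference did not pass with library totals (adjusted p = 0.128), without knockdown replicate 2 (0.0601) or without knockdown replicate 3 (0.0509). MIRLET7D did not pass in any comparison.

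Among 35 tested other let-7 targets, 8 rose and 18 fell with overexpression, with a median log2 fold change of -0.15 beside 0.01 over all genes. MYC, a growth-promoting transcription factor, rose by 0.55 (SE 0.05) and the activin receptor ACVR1C by 0.87 (SE 0.11), while the GTPase HRAS fell by 0.51 (SE 0.07) and the kinase MAP4K4 by 0.32 (SE 0.04). With knockdown 7 rose and 9 fell, near the 19.9% and 19.1% of all genes, with a median of -0.10 beside -0.00095. Library totals gave 14 falls and fitting only the compared groups 16. The death receptor FAS rose by 0.97 (SE 0.12) and the deubiquitinase YOD1 by 0.43 (SE 0.07). RRM2, a subunit of ribonucleotide reductase, fell by 0.45 (SE 0.05), E2F2 by 0.47 (SE 0.06) and the homeobox gene PBX3 by 0.54 (SE 0.07). The 9 falls were 5 without knockdown replicate 2, 4 without knockdown replicate 3 and 16 without overexpression replicate 3, and the 7 rises were 3 without knockdown replicate 2. Between overexpression and knockdown 9 were higher (4 without knockdown replicate 2) and 11 lower (7 with library totals), where 29.3% and 28.1% of all genes were. ACVR1C (0.89, SE 0.12), MYC (0.59, SE 0.06) and E2F5 (0.50, SE 0.08) were higher with overexpression, and the zinc finger gene PLAGL2 (-0.64, SE 0.06) and the Cajal body gene COIL (-0.54, SE 0.06) lower.

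The D-type cyclins act with other G1 to S genes, of which 25 were tested. With overexpression 6 rose and 8 fell, beside 25.2% and 24.1% of all genes, and with knockdown 7 rose and 4 fell, beside 19.9% and 19.1%. The medians were -0.02 and 0.06, beside 0.01 and -0.00095 over all genes. CDKN1A, the CDK inhibitor p21, rose in both, by 0.83 (SE 0.06) and by 1.16 (SE 0.06), and so did FBXW7, the SCF subunit that recognises cyclin E, by 0.54 (SE 0.06) and 0.39 (SE 0.06). WEE1, a kinase that restrains CDK activity, rose by 0.27 (SE 0.05) with overexpression, when the SCF subunit SKP1 fell by 0.29 (SE 0.05). With knockdown CDKN1B (p27) rose by 0.45 (SE 0.07), and E2F1 fell by 0.61 (SE 0.06) and the inhibitor CDKN2D by 0.82 (SE 0.10). Between overexpression and knockdown 7 were higher and 13 lower with overexpression, among them CDKN2D at 0.94 (SE 0.10), E2F1 at 0.44 (SE 0.06), UBE2R2 at 0.36 (SE 0.06), SKP1 at -0.33 (SE 0.06) and CDKN1B at -0.57 (SE 0.07). The 13 were 8 without knockdown replicate 2.

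Of 17 tested genes of the IGF axis and other oncofetal genes, 8 rose and 2 fell with overexpression, with a median of 0.26 beside 0.01 over all genes, and 4 rose and 3 fell with knockdown, with a median of 0.11 beside -0.00095. The shares of all genes were 25.2% and 24.1%, and 19.9% and 19.1%, so the knockdown counts lie near the background. The growth factor midkine (MDK) rose by 1.37 (SE 0.09) and by 0.62 (SE 0.10), and IGFBP2, which binds IGFs, by 0.49 (SE 0.08) and by 0.65 (SE 0.09). IGFBP5 rose by 0.71 (SE 0.05) and the trophoblast glycoprotein TPBG by 0.38 (SE 0.06) with overexpression, when PEG10, an imprinted gene derived from a retroelement, fell by 1.04 (SE 0.17). With knockdown the scavenging receptor IGF2R rose by 0.64 (SE 0.06), the adaptor IRS1 fell by 0.38 (SE 0.09) and the stem cell factor SALL4 by 0.49 (SE 0.15). The SALL4 fall did not pass without knockdown replicate 2 (adjusted p = 0.410) or control replicate 2 (0.0702), and without the latter the list had 1 fall. Between overexpression and knockdown 7 were higher and 3 lower with overexpression, among them MDK at 0.75 (SE 0.10), IRS1 at 0.64 (SE 0.08), IGFBP5 at 0.60 (SE 0.06), TPBG at 0.38 (SE 0.07) and IGF2R at -0.63 (SE 0.06). IGF2, the message for which the IGF2BP proteins are named, stood at 0.733 CPM in control and passed in neither comparison.

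For each target called against control, the genes with the most similar pattern were sought by Pearson correlation of log2 CPM over the 8 libraries, among 11141 genes whose mean log2 CPM was 3 or more. The points share the libraries and their grouping, so r is a description. The 2 nearest genes were SNAP91 (0.997) and SOWAHC (0.996) for CCND2, and MOGS (0.996) and DKFZP434I0714 (0.996) for CCND1. For IGF2BP1 they were NUP98 (0.999) and C5orf22 (0.998), and for IGF2BP2 DACT3 (0.996) and PXDC1 (0.994). HMGA1 was nearest to SLC4A2 (0.997) and KDELR1 (0.995), ARID3B to SLC7A5 (0.991) and MED22 (0.986), HMGA2 to INPP5F (0.988) and C7orf70 (0.986), and LIN28B to MSH6 (0.988) and NAA38 (0.988). None of the 10 targets was among the 2 nearest of another. Only the highest positive r were kept, so this does not show that the targets were unlike one another. Between targets r ran from -0.991 (CCND1 with IGF2BP1) to 0.954 (HMGA1 with ARID3B).

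Annotation limits how far some of these counts belong to 1 gene. In GENCODE 29, CCND1 shares 497 exon bases with LTO1 on the opposite strand, HMGA2 384 with an antisense gene, and CCND2 126 with its antisense gene and 989 with a coding gene on the same strand. LIN28B shares 67 with its antisense gene, and IGF2BP1 76 and 37 with 2 antisense genes. IGF2BP2, HMGA1, ARID3B and CDC34 share none.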

How the data were processed

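Read counts per gene symbol, not normalized, were deposited by the authors for 8 libraries (2 knockdown, 3 overexpression, 3 control). A stranded TruSeq kit was used on Trizol-extracted RNA, per the labels' protocols. The submitters' processing notes name hg19, TopHat2 2.0.8 and HTSeq 0.5.3p9, without their roles, beside Trimmomatic 0.22, CASAVA 1.8.2, edgeR and SAMtools 0.1.18. Libraries were assigned from their titles.

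Genes were filtered by edgeR's filterByExpr (minimum count 10, minimum total 15), which left 15254, and tested in R 4.3.3 with edgeR 4.0.16 (limma 3.58.1): TMM factors (0.961 to 1.03), 1 quasi-likelihood fit of all 8 libraries, two-sided tests, and Benjamini-Hochberg adjustment over all tested genes. An adjusted p under 0.05 was a call. The common biological coefficient of variation was 4.49%. SE is the absolute log2 fold change divided by the square root of F. CPM use TMM-scaled totals. The code was tested on simulated data. Each library counted as 1 replicate. Pairs of libraries of a group differed by more than sampling noise (chi-square per degree of freedom 1.85 to 7.81), which does not show that they are separate cultures.

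Symbols were matched to GENCODE 29 on GRCh38 (20194 by name, 1530 by an older symbol, 1644 unmatched), another build than that of the counts, so site coordinates were not joined to count coordinates. The 10 targets and the gene lists were chosen with earlier results of these data known. Named beside MOV10, the targets and their paralogs were, of each list and comparison, at most 5 called genes with the smallest adjusted p (a gene that several lists share is described once), and the 2 nearest genes of each called target. IGF2, MIRLET7D and LIN28A were added as context after their values were seen. A gene that this rule names is not reported here. Alternatives were DESeq2 1.42.0 and its size factors, library totals, no filter or a stricter one (CPM of at least 1), only the compared groups, an adjusted p of 0.01, a replicate block, other site definitions, the principal transcript, and leaving out each library. The split by 3' UTR length was added later, with the data in view.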

Additional observations from a re-analysis of the deposited data

How the results depend on the processing

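The target counts with overexpression, 3 higher and 3 lower, stayed at 2 to 3 and 3 to 4 under every alternative run. Those with knockdown moved most. Leaving out 1 library at a time gave 0 to 1 targets higher and 2 to 5 lower, and 1577 to 3749 genes higher and 1466 to 3484 lower. With only the compared groups fitted, 2 targets were higher and 5 lower with knockdown. Library totals gave 5 lower with knockdown and 2 lower in overexpression against knockdown, and turned the small values of CDC34 with overexpression (0.00996) and IGF2BP3 with knockdown (-0.0159). An adjusted p under 0.01 left 1912 genes lower with knockdown. Some uncalled values changed sign when a library was left out: CDC34 with overexpression ran from -0.0822 to 0.0114, IGF2BP3 with knockdown from -0.0125 to 0.0686 and IGF2BP3 in overexpression against knockdown from -0.0216 to 0.0555. The cause was not tested. With 8-base sites only, 5 targets held 8 sites, and with sites opposite bases 2 to 8 there were 13 sites. Correlations of deviations from the group mean ran from -0.309 to 0.213 over 7 same-numbered pairs and from -0.235 to 0.311 over other pairs. In groups this small the deviations constrain each other, so these values cannot show whether the numbers pair libraries. With the number as a replicate block, 3649 genes were higher and 3468 lower with overexpression and 2612 and 2557 with knockdown, and of the targets the block ended only the LIN28B call between overexpression and knockdown (adjusted p = 0.0514 by edgeR). The 2 knockdown libraries limit the precision of that group.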
